A study of Mus musculus with 4 samples.

Results

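The nuclear genes of oxidative phosphorylation (OXPHOS) were followed through a TGF-β time course in kidney mesenchymal cells. Members were taken by symbol, as every row of the count table whose name starts with Nduf followed by a, b, c, s or v, with Uqcr, with Cox and a digit of 4 to 8, or with Atp5, together with Sdha, Sdhb, Sdhc and Sdhd. This gave 88 of 17391 genes. Of these, 78 encode subunits: 36 of complex I, 4 of complex II, 8 of complex III, 15 of complex IV and 15 of complex V. The other 10 are assembly factors or relatives that share the name (Ndufaf1 to Ndufaf7, Atp5s, Atp5sl and the pseudogene Atp5l-ps1). Ndufa4, named as a complex I gene, was counted with complex IV, where its protein is now placed. The annotation placed 87 of the 88 on 19 chromosomes.

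Drop-seq, which captures the 3′ ends of mRNAs on barcoded beads in droplets, was run on Gli1+ kidney cells, described in the labels as a primary culture from male mice of 12 weeks. The series' title speaks of a conditionally immortalized line, and the labels do not give the number of animals or the reporter that marked Gli1. All cultures attached overnight and then spent 2 h without serum. Control cells were taken at that point with no TGF-β and are labelled 0 h. The others received 1 ng/ml TGF-β for 6 h, 12 h or 24 h. There was 1 library per time point, and differences below carry no p-value, since they lack replicates. The 0, 6, 12 and 24 h libraries held 192, 658, 1120 and 1328 barcodes with 106826, 778793, 5687966 and 6166324 counts, and no barcode sequence occurred in more than 1 library. Levels are in CPM, counts scaled to a library total of 1000000. Brackets give exact 95% intervals, Poisson for a level and conditional binomial for a ratio, and they cover counting error alone, not differences between cultures. A count of 3, the smallest taken as detection, equals 28.1, 3.85, 0.527 and 0.487 CPM in the 4 libraries in time order.

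Markers did not match the label of the 0 h library. Its 7 proximal tubule markers summed to 8472 CPM and its 4 loop, distal and collecting duct markers to 3482 CPM, while 5 of 7 mesenchymal markers in the table (Col1a1, Col3a1, Pdgfrb, Dcn and Sparc) had no count. In the 6, 12 and 24 h libraries the same mesenchymal markers summed to 2681, 5577 and 6823 CPM and the proximal tubule markers to 1.28, 1.41 and 2.43 CPM. The treated libraries are therefore compared with each other first, and the library labelled 0 h is described at the end.

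OXPHOS couples electron transfer to ATP synthesis in the inner mitochondrial membrane. Complex I (NADH dehydrogenase) and complex II (succinate dehydrogenase) feed electrons to ubiquinone, complex III passes them to cytochrome c, complex IV reduces oxygen, and complex V (ATP synthase) uses the proton gradient that complexes I, III and IV build. Most subunits are nuclear genes, while the mitochondrial genome (the mt- genes) encodes central membrane subunits of complexes I, III, IV and V, so each of those complexes needs both genomes. Tubule cells of the kidney rely heavily on OXPHOS for ion transport.

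Most nuclear OXPHOS genes stayed within a narrow range over the 3 treated libraries, and 4 did not. Atp5l, Atp5g2, Ndufs5 and Ndufb4 were low at 12 h and near their 6 h level again at 24 h. Atp5l encodes subunit g of the membrane part of ATP synthase, and Atp5g2 is one of 3 genes for the same mature c subunit of its proton-driven ring. Ndufs5 and Ndufb4 encode accessory subunits of the membrane arm of complex I. To show the sequence around their starts, in which no marked motif was common to all 4, their promoters are printed from RefSeq (GRCm38.p6, 250 bases before to 50 after the annotated start, 5′ to 3′ on the gene's strand, which is the minus strand for all of them). Capitals mark, on either strand, GCGCA and GCGC with any base between them, a motif of NRF1, a regulator of mitochondrial genes, in Atp5g2, Ndufs5 and Ndufb4, and CCGGAAG, a motif bound by ETS factors such as GABP, in Atp5l. The windows are chr9:44920693-44920992 for Atp5l, chr15:102670998-102671297 for Atp5g2, chr4:123718137-123718436 for Ndufs5 and chr16:37654319-37654618 for Ndufb4.
Atp5l: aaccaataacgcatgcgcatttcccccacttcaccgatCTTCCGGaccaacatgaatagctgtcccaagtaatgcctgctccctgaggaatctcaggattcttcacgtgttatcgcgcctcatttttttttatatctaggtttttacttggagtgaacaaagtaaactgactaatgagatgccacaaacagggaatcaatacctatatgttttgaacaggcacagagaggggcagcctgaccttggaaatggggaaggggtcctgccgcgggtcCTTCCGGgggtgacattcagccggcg
Atp5g2: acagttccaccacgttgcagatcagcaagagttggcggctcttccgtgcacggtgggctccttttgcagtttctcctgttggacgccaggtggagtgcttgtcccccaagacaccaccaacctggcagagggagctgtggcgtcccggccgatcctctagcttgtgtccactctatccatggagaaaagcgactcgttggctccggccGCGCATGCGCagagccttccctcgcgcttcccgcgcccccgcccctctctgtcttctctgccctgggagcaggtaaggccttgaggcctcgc
Ndufs5: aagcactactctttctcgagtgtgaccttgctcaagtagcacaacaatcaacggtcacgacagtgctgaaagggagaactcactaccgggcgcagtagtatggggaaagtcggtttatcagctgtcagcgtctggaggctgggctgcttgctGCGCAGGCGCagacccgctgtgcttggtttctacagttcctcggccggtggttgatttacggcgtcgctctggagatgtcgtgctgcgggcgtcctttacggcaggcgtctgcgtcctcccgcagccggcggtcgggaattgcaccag
Ndufb4: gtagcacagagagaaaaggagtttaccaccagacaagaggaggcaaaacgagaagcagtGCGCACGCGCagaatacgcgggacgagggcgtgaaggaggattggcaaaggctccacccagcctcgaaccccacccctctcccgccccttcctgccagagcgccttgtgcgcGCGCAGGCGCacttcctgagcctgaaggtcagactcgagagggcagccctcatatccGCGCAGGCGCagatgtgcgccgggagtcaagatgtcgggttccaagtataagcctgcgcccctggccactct

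The NRF1 motif occurred in 3 of these 4 windows, at 1 place in Atp5g2, 1 in Ndufs5 and 3 in Ndufb4, and the ETS motif at 2 places in Atp5l. Another motif searched on both strands, AAGATGGCG of YY1, was in none of the 4. Among the 71 OXPHOS genes with a promoter in the table, 19 (26.8%) held the NRF1 motif, against 15.1% of the promoters of genes at 50 CPM or more and 5.19% of all 27025. The ETS motif was in 17 (23.9%), against 24.0% and 9.93%, and the YY1 motif in 7 (9.86%), against 4.41% and 1.64%. The ETS share was thus close to that of other expressed genes. Such matches are letters in a window and do not show that a factor binds there.

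Atp5l (chr9:44912557-44920742, minus strand, mm10) had 18.7 CPM in the library labelled 0 h and 369 (327 to 414), 32.5 (28.0 to 37.6) and 398 (382 to 414) CPM at 6, 12 and 24 h. The 12 h level lay 11.3-fold (9.39 to 13.7) below that at 6 h, and the 24 h level 12.2-fold (10.5 to 14.3) above that at 12 h. The 6 h and 24 h libraries lay together and the 12 h library stood far below both. A count of Atp5l was present in 136, 165 and 816 barcodes of these libraries.

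Atp5g2 (chr15:102662864-102672352, minus strand) had no count in the library labelled 0 h and 103 (81.5 to 128), 15.5 (12.4 to 19.1) and 128 (120 to 138) CPM at 6, 12 and 24 h, so the 12 h level lay 6.64-fold (4.84 to 9.09) below that at 6 h and the 24 h level 8.30-fold (6.65 to 10.5) above that at 12 h. The other two c subunit genes moved less. Atp5g1 had 286, 236 and 314 CPM at 6, 12 and 24 h, and Atp5g3 had 714, 506 and 615 CPM. Their levels at 12 h were 0.825 (0.715 to 0.954) and 0.708 (0.647 to 0.777) of those at 6 h, so all 3 genes for this ring subunit had their lowest treated level at 12 h, at unequal depth.

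Ndufs5 (chr4:123712710-123718202, minus strand) had 100.2 (79.2 to 125), 30.1 (25.7 to 34.9) and 98.0 (90.3 to 106) CPM at 6, 12 and 24 h. Ndufb4 (chr16:37647170-37654453, minus strand) had 108 (86.0 to 134), 27.8 (23.6 to 32.5) and 88.2 (81.0 to 96.0) CPM. Both were 3- to 4-fold lower at 12 h than at 6 h (Ndufs5 3.33-fold, Ndufb4 3.88-fold) and higher by a like factor at 24 h than at 12 h (3.26-fold and 3.18-fold). In all 4 genes the 12 h interval lay below the 6 h and 24 h intervals.

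**Figure D1:**
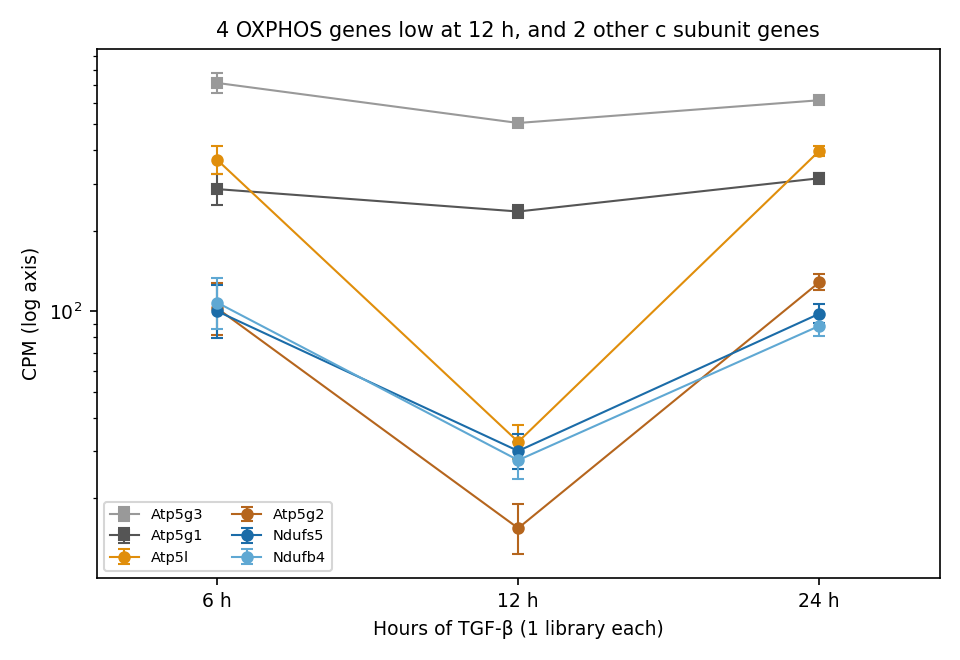
CPM on a log axis in the 6, 12 and 24 h libraries (1 each) for the 4 genes low at 12 h (round points) and the other two c subunit genes (squares); bars are exact 95% counting intervals. Atp5l sits at 369, 32.5 and 398 CPM, whereas Atp5g1 stays between 236 and 314 CPM.

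A gene was counted as low at 12 h alone when its 12 h level was at least 1.5-fold below both its 6 h and its 24 h level. Only genes with a mean of 50 CPM or more over the treated libraries were considered, which held for 77 of the 88 OXPHOS genes. By this readout 4 of 77 (5.19%) were low at 12 h alone, against 84 of 3609 genes in all (2.33%), and none was high at 12 h alone, against 1.66% of all genes. At a 2-fold limit the same 4 were found, against 1.11% of all genes, and none was high, against 0.194%. The next gene outside the limit was Cox8a, a small subunit of complex IV, with 607, 406 and 572 CPM at 6, 12 and 24 h, a 12 h level 1.496-fold below the 6 h level and 1.41-fold below the 24 h level. Cox5b followed, with 1.29-fold as the smaller of its 2 folds. With TMM or DESeq2 scaling Cox8a passed the limit and made the count 5 (6.49%, against 3% and 3.11% of all genes). A gap separated the 3.18-fold of Ndufb4 from the rest.

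The low level at 12 h did not lie in a few barcodes. Within 12 h barcodes of under 1000, of 1000 to under 3000 and of 3000 or more counts, Atp5l had 32.4, 22.7 and 33.4 CPM, against 422, 575 and 323 CPM in the same classes of the 6 h library. The barcode with most Atp5l held 4.88%, 1.62% and 0.693% of its counts at 6, 12 and 24 h. Over 7 other scalings and barcode sets, the fold of 6 h over 12 h ranged from 10.8 to 14.1 for Atp5l and from 2.81 to 5.73 for Ndufs5, and no setting took any of the 4 genes below 2.8-fold in either comparison.

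Sequence that these genes share with others moved with the result. Drop-seq reads start near the 3′ end, so the 51-base stretches of the last 600 bases of each gene's transcripts were looked up in the transcripts of all other annotated genes. The share found elsewhere was 43.7% for Atp5g2, 24.9% for Atp5l, 23.5% for Ndufs5 and 11.5% for Ndufb4. For Atp5g2 the main match was Gm10175, annotated as a processed transcript, at 0, 1.58 and 1.14 CPM at 6, 12 and 24 h. For Atp5l it was the processed pseudogene Gm10221, at 14.1, 4.04 and 11.5 CPM, low at 12 h as well, and for Ndufs5 and Ndufb4 the processed pseudogenes BC002163 and Ndufb4c. How reads that align to several genes were counted is not stated.

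Among all 3609 genes, those low at 12 h alone numbered 8 of 2896 (0.276%) with under 5% of such stretches shared, and 72 of 569 (12.7%) with 5% or more. Among OXPHOS genes the counts were 0 of 54 and 4 of 23 (17.4%). With TMM or DESeq2 scaling, 1 of the 54 was low too: Cox8a, which shares none of its stretches, against 0.381% of all genes with under 5% shared. The share of low genes grew along the classes of none, up to 5%, 5 to 10%, 10 to 20% and 20% or more shared, with 0.229%, 0.420%, 2.65%, 11.9% and 19.7% of all genes. OXPHOS genes with much shared sequence were not all low, however: Atp5g1, at 39.3%, and Ndufa12, at 23.5%, had 12 h levels of 0.825 and 1.02 of those at 6 h. Nuclear OXPHOS genes shared 5% or more of these stretches in 29.9% of cases, against 16.4% of all genes. Cytosolic ribosomal proteins, another family with many pseudogenes, are encoded by 26 of the 84 genes low at 12 h alone and by 77 of all 3609 genes. Of those 77, 35 were lower by 1.5-fold or more at 12 h than at 6 h. The part of shared sequence in the 12 h levels was not tested.

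**Figure D2:**
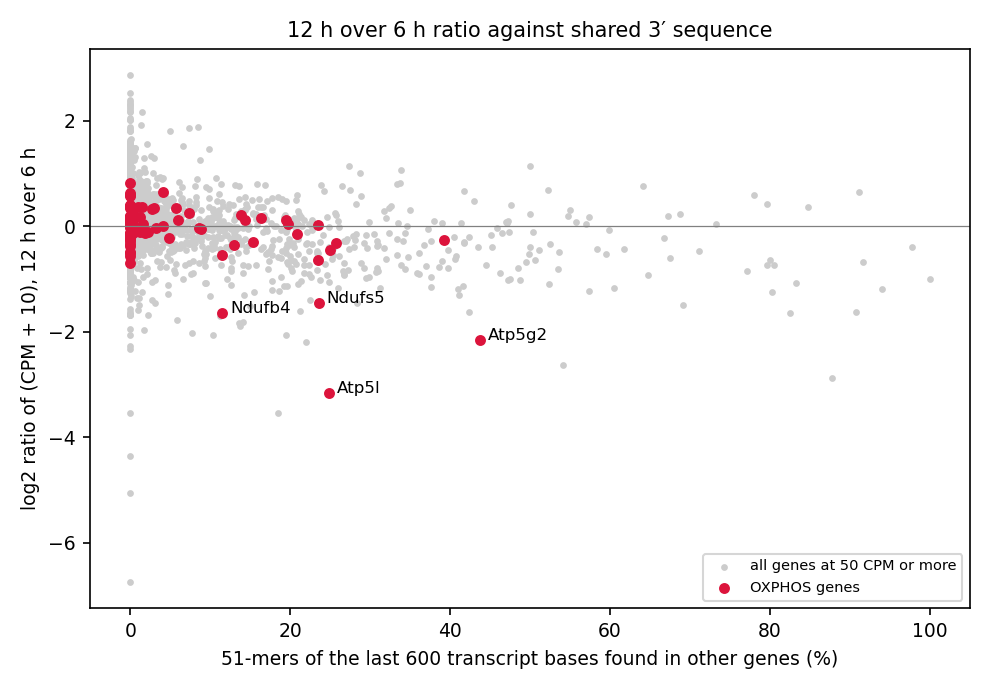
Log2 ratio of 12 h over 6 h (CPM plus 10) against the percentage of 51-base stretches of the last 600 transcript bases that occur in other genes; each point is a gene at 50 CPM or more, OXPHOS genes in red. The 4 named genes have 11.5% to 43.7% shared, and 1 of the other OXPHOS genes, Atp5g1, with 39.3%, lies much nearer 0.

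Transcripts of OXPHOS genes are short, with a median coding transcript of 659 bases over the 77 members, against 1861 bases over all genes, and length moved with the ratios too. Genes whose longest transcript was under 600, 600 to under 1000, 1000 to under 2000 and 2000 bases or more had median log2 ratios of 12 h over 6 h of -0.41, -0.05, 0.12 and 0.16. The OXPHOS genes of these classes had -0.20, -0.06, 0.14 and 0.11. By coding transcript length instead, the all-gene medians were -0.07, 0.12, 0.13 and 0.17. Those of the OXPHOS genes were then -0.12, 0.03, 0.17 and 0.04. With this second measure and under 5% shared sequence, the all-gene medians were 0.09, 0.21, 0.17 and 0.19. Those of the 20, 19, 13 and 2 OXPHOS genes left were -0.07, 0.08, 0.17 and -0.03.

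Summed over each complex, the nuclear OXPHOS genes differed little between the treated libraries. All 88 genes together took 23678, 22998 and 25120 CPM at 6, 12 and 24 h, that is 2.37%, 2.30% and 2.51% of all counts. The 12 h sum was 0.971 (0.956 to 0.986) of the 6 h sum, and the 24 h sum 1.09 (1.08 to 1.10) of the 12 h sum. The first of these was lower with every other scaling tried, down to 0.862 with DESeq2 size factors. It was 1.02 when each gene's top barcode was left out of its counts but not of the library total. Since a scaling factor multiplies all genes alike, the order of the complexes does not depend on it, but the side of 1 on which a ratio lies can. Equal barcode weights and other barcode sets are no such factor, and the complexes were not recomputed with them.

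Complex I had 6737, 7360 and 7595 CPM at 6, 12 and 24 h, complex II 517, 544 and 544 CPM, and complex III 2786, 2561 and 2672 CPM. Complex IV had 6769, 6321 and 7352 CPM, and complex V 6419, 5844 and 6601 CPM. The ratio of 12 h over 6 h was highest for complex I, at 1.09 (1.06 to 1.12), then 1.05 (0.947 to 1.17) for II, 0.934 (0.907 to 0.961) for IV, 0.919 (0.879 to 0.962) for III and 0.910 (0.884 to 0.938) for V. The intervals of III, IV and V overlapped each other and lay below that of I. Complexes IV and V had the larger ratios of 24 h over 12 h, at 1.16 (1.15 to 1.18) and 1.13 (1.11 to 1.15), against 1.03 (1.02 to 1.05) for I, 1.00 (0.952 to 1.05) for II and 1.04 (1.02 to 1.07) for III. Complex V owed part of this to 2 genes: without Atp5l and Atp5g2 its ratio of 12 h over 6 h was 0.974 (0.945 to 1.00), above those of III and IV with overlapping intervals, and that of 24 h over 12 h was 1.05 (1.03 to 1.06), close to that of III. Without Ndufs5 and Ndufb4, complex I had 1.12 (1.09 to 1.15) and 1.01 (1.00 to 1.03).

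**Figure D3:**
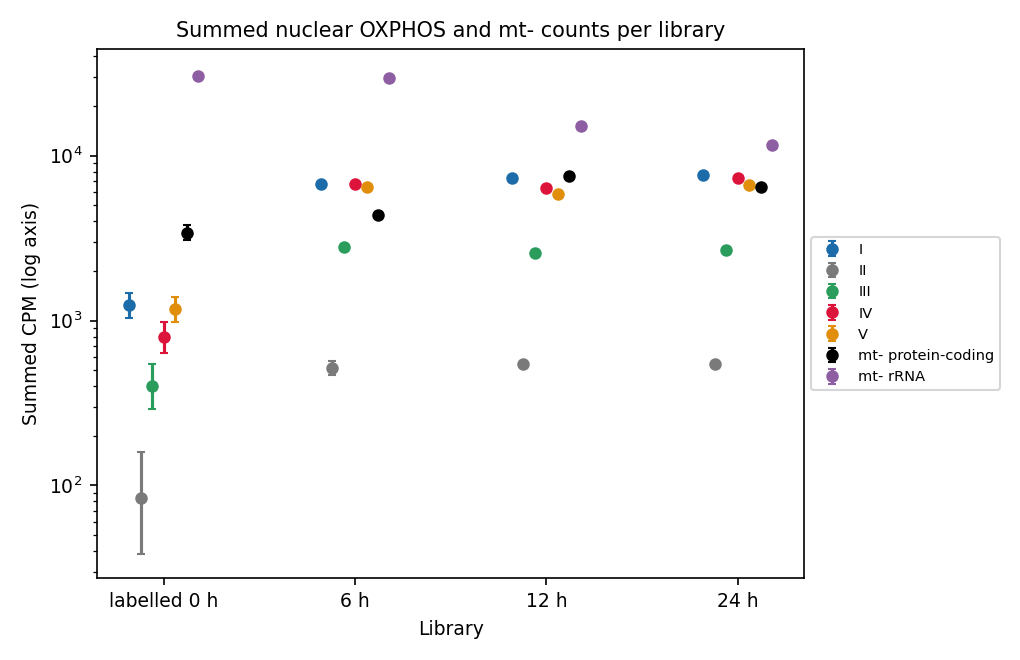
Summed CPM on a log axis per library, by complex for the nuclear OXPHOS genes and for the mt- protein-coding and mt- rRNA genes; bars are exact 95% counting intervals, often smaller than the point. Complex I sits at 6737, 7360 and 7595 CPM at 6, 12 and 24 h, mt- protein-coding genes at 4379, 7558 and 6484 CPM, and in the library labelled 0 h every complex lies lower.

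Single genes were mostly as flat. Of the 77 at 50 CPM or more, 63 (81.8%) stayed within 1.5-fold over the 3 treated libraries, against 62.2% of all genes. The median of the highest over the lowest treated level was 1.27 for OXPHOS genes and 1.39 for all genes. These comparisons were not matched for level, and counting error is larger for genes of lower level. A mean of 100 CPM or more held for 67 of the 77 OXPHOS genes and for 1949 of all 3609 genes. The median log2 ratio (CPM plus 10) was 0.03 at 12 h over 6 h, against 0.14 over all genes, 0.09 at 24 h over 12 h, against -0.11, and 0.07 at 24 h over 6 h, against 0.03. Scaling by DESeq2 size factors brought the all-gene medians to -0.02, 0.01 and -0.01, so the OXPHOS values are best read beside them: below the median gene at 12 h and above it from 12 h to 24 h.

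From 6 h to 12 h, 5 OXPHOS genes were higher by 1.5-fold or more (6.49%, against 19.9% of all genes) and 6 lower (7.79%, against 8.12%). With TMM this split became 1 higher (1.30%, against 14.5% of all genes) and 11 lower (14.3%, against 11.4%). With DESeq2 size factors it was again 1 and 11, against 12.1% and 13.1% of all genes. Totals that leave out mt- and ribosomal protein genes gave 1 and 10 (1.28% and 12.8%, against 15.9% and 10.7%), and equal barcode weights 6 and 12 (7.79% and 15.6%, against 29.4% and 12.5%). OXPHOS genes called higher were a smaller share than among all genes in each of these settings, while those called lower stayed within a few percentage points of the background. With a filter of 100 CPM, 2 of 67 were lower (2.99%, against 9.08%), and among genes with under 5% shared sequence 1 of 54 was lower at 12 h (1.85%, against 4.9%) and none higher at 24 h over 12 h (against 1.38%). From 12 h to 24 h, the 4 genes described above were higher (5.19%, against 3.66%) and none lower (0%, against 5.21%). Between 24 h and 6 h, 3 were higher (3.90%, against 15.7%) and 2 lower (2.60%, against 10.4%). At a 2-fold limit, 4 genes were lower at 12 h than at 6 h (against 3.35% of all genes) and none higher (against 6.26%), the same 4 were higher at 24 h than at 12 h (against 1.3%) and none lower (against 1.3%), and none differed between 24 h and 6 h (against 5.29% higher and 3.08% lower). At 1.5-fold and scaled to library totals, OXPHOS genes past the limit were thus fewer than among all genes in 4 of these 6 counts, near the background in 1 and above it in 1.

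**Figure D4:**
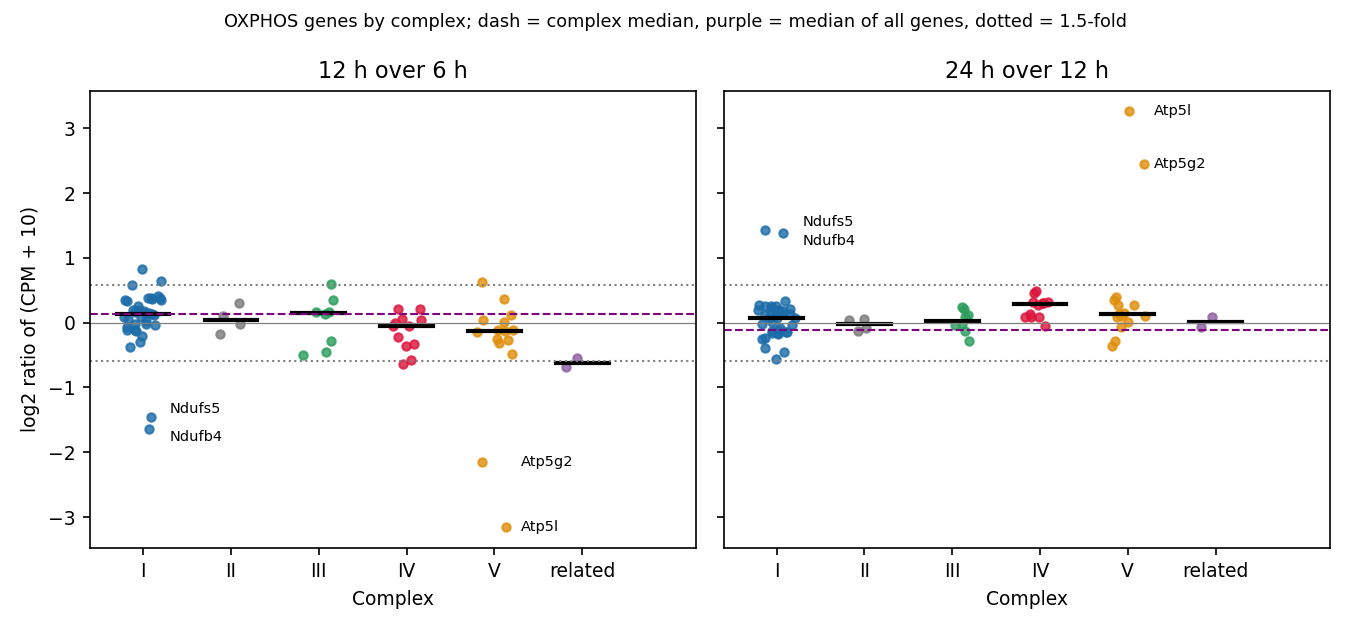
Log2 ratios (CPM plus 10) of each OXPHOS gene at 50 CPM or more, by complex, at 12 h over 6 h (left) and 24 h over 12 h (right); black dashes are medians of a complex, the purple line is the median of all genes (0.14 and -0.11) and dotted lines mark 1.5-fold. Atp5l, Atp5g2, Ndufs5 and Ndufb4 lie apart on both sides and the other genes stay near or within the dotted lines.

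Core and accessory subunits differed in the 12 h over 6 h ratio, a grouping made after the values were seen. Core here means a list of 7 subunits of complex I that carry out electron transfer, all 4 of complex II, Uqcrc1, Uqcrc2 and the Rieske protein of complex III, and the 5 subunits of the soluble head of complex V. Their sum was 3979, 4701 and 4480 CPM at 6, 12 and 24 h, and the 59 accessory subunits summed to 19250, 17928 and 20284 CPM. The 12 h over 6 h ratio was 1.18 (1.14 to 1.23) for core and 0.931 (0.915 to 0.947) for accessory genes, and that of 24 h over 12 h was 0.953 (0.937 to 0.969) and 1.13 (1.12 to 1.14). These ratios are scaled to library totals, and their size depends on the scaling. Of the 5 genes higher at 12 h than at 6 h, 4 were core. The same order held within complexes I (1.29 for core against 1.07 for accessory genes), III (1.29 against 0.855) and V (1.16 against 0.772). The list bears on this. With the c, b and OSCP genes of ATP synthase (Atp5g1, Atp5g2, Atp5g3, Atp5f1 and Atp5o) as core, the core ratio of 12 h over 6 h was 1.06 (1.03 to 1.09), against 0.945 (0.929 to 0.963) for accessory genes, and the core ratio of complex V was 0.997 (0.961 to 1.03). With Uqcrc1 and Uqcrc2 as accessory, complex III had 1.14 (0.921 to 1.41) for its 1 core gene and 0.909 (0.868 to 0.952) for the others. The 4 genes low at 12 h alone stand on the accessory side of the first list, and without them the accessory ratio of 12 h over 6 h was 0.960 (0.943 to 0.977), that of complex I 1.10 and that of complex V 0.859. Median coding transcripts were 1046 bases for core and 624 bases for the 56 accessory genes at 50 CPM or more. Transcript length thus differed between the groups, and its part in the ratio was not tested.

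In complex I, Ndufv2, a core iron-sulfur subunit of the NADH-oxidizing module, had 117, 179 and 160 CPM at 6, 12 and 24 h and rose 1.53-fold (1.24 to 1.92) at 12 h over 6 h. It was under the limit with TMM, DESeq2 size factors, totals without mt- and ribosomal protein genes, and equal barcode weights. Ndufv1, which binds NADH and FMN, had 79.6, 107 and 104 CPM. Ndufs1, the largest iron-sulfur subunit of that module, had 68.1, 76.1 and 67.6 CPM.

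Among accessory subunits of complex I, Ndufb8 of the membrane arm had 173 (145 to 205), 276 (263 to 290) and 185 (174 to 196) CPM at 6, 12 and 24 h. It rose 1.59-fold (1.34 to 1.91) at 12 h over 6 h, and its 24 h level was 0.670 (0.620 to 0.723) of that at 12 h, just short of the limit. The rise was under the limit with TMM, DESeq2 size factors and totals without mt- and ribosomal protein genes, and the 24 h level passed the limit with equal barcode weights. Other accessory genes were highest at 24 h. Ndufa6 had 229, 299 and 380 CPM and rose 1.66-fold (1.43 to 1.95) at 24 h over 6 h, a call lost with equal barcode weights. Ndufv3, a small subunit of the NADH module, had 109, 144 and 164 CPM and rose 1.51-fold (1.21 to 1.90), a call lost with DESeq2 size factors, totals without mt- and ribosomal protein genes, and the deeper barcodes (1000 counts or 500 genes and more). Ndufa2, another accessory subunit, had 371, 395 and 472 CPM.

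Of the 7 assembly factor genes of complex I, 2 were at 50 CPM or more, and both had a lower level at 12 h and 24 h than at 6 h. Ndufaf4 had 110 (88.3 to 136), 64.7 (58.3 to 71.7) and 69.1 (62.7 to 76.0) CPM at 6, 12 and 24 h. It fell 1.71-fold (1.33 to 2.16) at 12 h against 6 h, and its 24 h level was 0.626 (0.495 to 0.798) of that at 6 h. Ndufaf2 had 229, 153 and 145 CPM and fell 1.57-fold at 24 h against 6 h. Ndufaf2 overlaps Smim15, at a mean of 145 CPM, on the opposite strand, and it is not stated whether counting used the strand. The 5 other Ndufaf genes were under 50 CPM. Their ratios of 12 h over 6 h were 1.40 for Ndufaf1, 1.60 for Ndufaf3, 1.04 for Ndufaf5, 0.898 for Ndufaf6 and 1.53 (1.03 to 2.35) for Ndufaf7. The intervals of the first 4 include 1, so neither a fall nor a rise was resolved for them.

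Complex II, the one complex encoded wholly in the nucleus, had no gene past 1.5-fold. Sdha, its flavoprotein, had 93.7 (73.5 to 118), 102 (93.7 to 110) and 92.6 (85.2 to 101) CPM at 6, 12 and 24 h, and Sdhb, its iron-sulfur subunit, had 193, 190 and 198 CPM. The membrane anchors Sdhc and Sdhd had 132, 165 and 171 CPM and 98.9, 86.8 and 81.7 CPM. The ratio of 12 h over 6 h was 1.25 (1.02 to 1.55) for Sdhc and 0.878 (0.690 to 1.13) for Sdhd.

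In complex III, Uqcrc1, the core I protein, had 159 (132 to 190), 245 (232 to 258) and 199.8 (189 to 211) CPM at 6, 12 and 24 h and rose 1.54-fold (1.28 to 1.86) at 12 h over 6 h, a call kept with equal barcode weights and without top barcodes and lost in the other 5 scalings and barcode sets. Uqcrfs1, the Rieske iron-sulfur protein, had 128, 146 and 143 CPM. The small accessory subunit Uqcrq had 967 (899 to 1038), 682 (661 to 704) and 722 (701 to 744) CPM, and its 12 h level was 0.705 (0.652 to 0.764) of that at 6 h. This is short of the limit, which it passed with TMM, DESeq2 size factors, totals without mt- and ribosomal protein genes, and equal barcode weights. The 6 h interval lay above the other two, which overlapped. Uqcrh, the hinge protein beside cytochrome c1, had 300.5, 384 and 447 CPM, 1.49 (1.30 to 1.71) at 24 h over 6 h, and passed the limit in the deeper barcodes and without top barcodes.

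In complex IV the nuclear genes encode the subunits around a catalytic centre made in mitochondria. Cox4i1 had 1192 (1116 to 1271), 1388 (1357 to 1419) and 1526 (1495 to 1557) CPM at 6, 12 and 24 h, 1.28 (1.20 to 1.37) at 24 h over 6 h. Cox7c fell 1.58-fold (1.42 to 1.76) at 12 h against 6 h, with 525, 332 and 404 CPM, and has 23.5% shared 3′ sequence; in barcodes of 500 genes or more it was under the limit. Cox5a, Cox6a1, Cox7a2 and Cox7b kept within 1.1-fold at 12 h over 6 h, with 579, 599.9 and 636 CPM for Cox5a. Ndufa4 had 656, 656 and 820 CPM, and Cox7a2l, which helps join complexes III and IV into supercomplexes, had 205, 241 and 301 CPM. Isoforms of particular tissues were near absent: Cox7a1, the form of heart and skeletal muscle, had 1.28, 2.99 and 0.324 CPM, Cox6b2 between 3.85 and 6.50 CPM, and Cox8c 0, 1 and 1 counts. Cox4i2, Cox6a2 and Ndufa4l2 were not analysed here.

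In complex V, the catalytic β subunit gene Atp5b had 596 (543 to 653), 770 (747 to 793) and 628 (609 to 649) CPM at 6, 12 and 24 h. Atp5a1, for the α subunit, had 403 (360 to 450), 631 (611 to 652) and 488 (471 to 506) CPM. Atp5a1 rose 1.56-fold (1.39 to 1.76) at 12 h over 6 h, and Atp5b had a ratio of 1.29 (1.17 to 1.43). The call of Atp5a1 was lost with TMM, DESeq2 size factors, totals without mt- and ribosomal protein genes, and equal barcode weights. Their partners in the soluble head had 511, 513 and 518 CPM for Atp5c1, 452, 379 and 423 CPM for Atp5d, and 342, 372 and 452 CPM for Atp5e. Atp5e was thus highest at 24 h, at 1.32 (1.17 to 1.51) of its 6 h level. The 10 accessory genes together had 4115, 3179 and 4091 CPM, to which Atp5l, Atp5g2 and Atp5g3 contributed the lowest 12 h over 6 h ratios.

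The mitochondrial genes did not follow the nuclear ones. Summed over the 10 mt- protein-coding genes in the table, the level was 4379 (4233 to 4528), 7558 (7487 to 7630) and 6484 (6420 to 6548) CPM at 6, 12 and 24 h. That is 1.73 (1.67 to 1.79) at 12 h over 6 h, against 0.971 for the nuclear genes, and 0.858 (0.846 to 0.870) at 24 h over 12 h, against 1.09. With all barcodes at equal weight the first ratio was 4.57, and among barcodes of 1000 or more counts it was 1.39, so its size depended on the shallow 6 h barcodes. The mt- rRNA genes went down over the same course, with 29573, 15048 and 11656 CPM, nearly all of it mt-Rnr2.

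Among single mt- genes, mt-Cytb of complex III had 1091, 2307 and 1781 CPM at 6, 12 and 24 h, 2.11 (1.97 to 2.27) at 12 h over 6 h. The complex I gene mt-Nd4 had 566, 1373 and 1055 CPM, at 2.42 (2.20 to 2.67), and mt-Nd1 had 817, 1449 and 1387 CPM, at 1.77 (1.64 to 1.93). In contrast mt-Nd5 had 803, 794 and 759 CPM, at 0.990 (0.910 to 1.08). In between, mt-Nd2 had 819, 1209 and 982 CPM, mt-Co1 of complex IV 259, 396 and 484 CPM, and mt-Nd6, the one protein-coding gene on the opposite strand, 23.1, 29.0 and 35.8 CPM. So the mt- genes of complex I did not move as one.

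The genes mt-Co2, mt-Atp6 and mt-Nd3 had almost no counts. There were for mt-Co2 0, 0, 3 and 0 counts at 0, 6, 12 and 24 h, for mt-Atp6 0, 0, 1 and 2, and for mt-Nd3 none. Of their 51-base stretches, 100%, 99.5% and 98.0% also occur in nuclear copies of mitochondrial sequence (Gm28661, Gm10925 and Gm28438 in the annotation), and 78.0% of those of mt-Co1. Those of mt-Cytb, mt-Nd1 and mt-Nd6 have no such copy. The part of these copies in the near absence of counts was not tested, and mt-Co3, mt-Atp8 and mt-Nd4l were not analysed here. No deposited barcode had 5% or more mt- counts (highest 4.97% to 4.99% in the 4 libraries), so cells with more than that are not represented and levels of mt- genes are bounded by it.

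In single barcodes of 1000 or more counts, OXPHOS genes took a median of 0.385%, 2.35%, 2.30% and 2.496% of counts at 0, 6, 12 and 24 h (13, 80, 865 and 933 barcodes). The interquartile range was 2.17% to 2.60% at 6 h, 2.09% to 2.52% at 12 h and 2.29% to 2.72% at 24 h, so the treated libraries overlapped widely. The mt- protein-coding genes took 0.385%, 0.422%, 0.749% and 0.639%, and their interquartile range at 6 h was wide, at 0.137% to 0.639%. Across barcodes of a library the OXPHOS and mt- protein-coding shares had Pearson's r of -0.02 at 6 h (n = 80), -0.12 at 12 h (n = 865) and -0.21 at 24 h (n = 933). These are descriptions over barcodes that share a library and differ in depth, and the shares of 1 total are not free of each other.

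**Figure D5:**
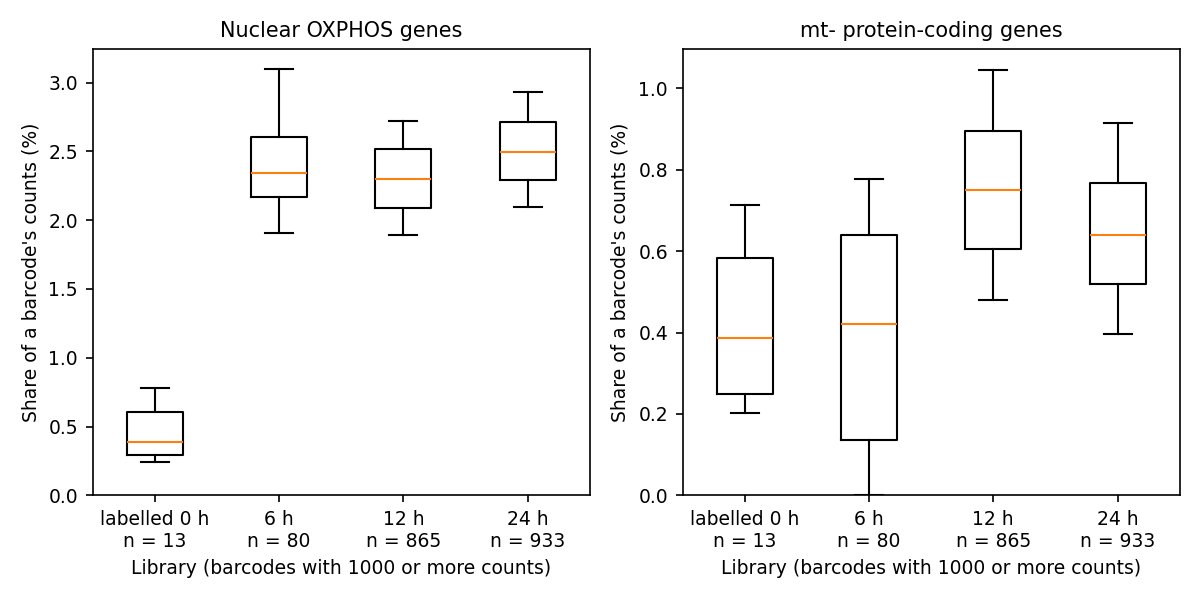
Share of a barcode's counts in nuclear OXPHOS genes (left) and mt- protein-coding genes (right) for barcodes of 1000 or more counts per library; boxes span the quartiles with the median line, and whiskers the 10th to 90th percentile. OXPHOS medians are 2.35%, 2.30% and 2.496% at 6, 12 and 24 h, and mt- medians 0.422%, 0.749% and 0.639%.

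Other genes of the pathway were taken from lists, with the same background of 19.9% higher and 8.12% lower at 12 h over 6 h. The tricarboxylic acid cycle and pyruvate dehydrogenase make NADH and succinate for the chain. Of 16 genes of their list at 50 CPM or more, 3 were higher, Idh3g and Idh2 among them, and none lower. Idh2, the mitochondrial NADP-dependent isocitrate dehydrogenase, had 61.6, 103 and 93.2 CPM at 6, 12 and 24 h. A second list held 9 genes: Cycs, Cyc1, Atpif1, Slc25a3, Slc25a4, Slc25a5, Vdac1, Vdac2 and Vdac3. They encode electron carriers, the ATP synthase inhibitor, phosphate and adenine nucleotide carriers, and pores. Cyc1, for cytochrome c1 of complex III, is outside the symbol rule and so outside the complex III sums. Of the 9, none was higher and 1, Cycs for cytochrome c, was lower, with 152, 94.8 and 99.7 CPM. Assembly factors outside the symbol rule had 6 genes at 50 CPM or more, of which Tmem70, an ATP synthase assembly factor, was higher with 65.5, 101 and 89.0 CPM. The median log2 ratios of these lists at 12 h over 6 h were 0.19, -0.22 and 0.02, against 0.14 over all genes.

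Of 12 regulators of mitochondrial biogenesis with a row of counts, 2 were at 50 CPM or more. Tfam, which helps transcribe and package mitochondrial DNA, had 56.5, 48.3 and 54.7 CPM at 6, 12 and 24 h, and Yy1 had 148, 147 and 123 CPM. Neither passed 1.5-fold. The coactivator Ppargc1a had 0, 3 and 14 counts in these libraries, and 28 in the library labelled 0 h. Of 56 mitochondrial ribosomal protein genes at 50 CPM or more, 3 were higher and 4 lower at 12 h over 6 h, with a median of 0.04. Of 77 cytosolic ribosomal protein genes at that level, none was higher and 35 were lower, with a median of -0.52 at 12 h over 6 h and 0.53 at 24 h over 12 h.

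Set against the library labelled 0 h, OXPHOS genes took more counts in every treated library. All 88 summed to 4128 CPM (3752 to 4532) in the library labelled 0 h, and the 6, 12 and 24 h sums given above were 5.74-fold (5.22 to 6.32), 5.57-fold and 6.08-fold of it. Of the 77 genes at 50 CPM or more in the treated libraries, the interval of the ratio lay above 1 for 71, 68 and 70 at 6, 12 and 24 h (92.2%, 88.3% and 90.9%, against 55.1%, 60.7% and 57.2% of all genes) and below 1 for 1 at each time (1.30%, against 9.92%, 8.89% and 9.98%), and this filter leaves out genes high in the library labelled 0 h alone. The gene below 1 was Ndufaf4, with 110, 64.7 and 69.1 CPM at 6, 12 and 24 h against 197 CPM in that library. Atp5sl, under the filter, had 5.14, 6.86 and 7.78 CPM, against 122 CPM. No count was present at 0 h for 9 genes, among them Sdhc, Ndufs4, Ndufa9 and Atp5g2. Set against the floor of 3 counts in that library, 28.1 CPM, the 6 h level was 5.35-fold for Ndufs4 and 4.71-fold for Sdhc. These folds are not lower limits, since the interval for no count in that library reached 34.5 CPM, above the floor.

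The mt- protein-coding genes differed less, with 3417 CPM at 0 h, and mt- rRNA took 30498 CPM, close to its 6 h level. The nuclear RNA Malat1 made up 0.947% to 1.24% of counts in the treated libraries, against 32.2% at 0 h, and cytosolic ribosomal protein genes took 10.97% to 15.4%, against 0.348%. With the tubule markers given above, cell type, RNA content and TGF-β cannot be told apart in this comparison.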

How the data were processed

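The authors deposited raw counts for each gene and barcode of 4 Drop-seq libraries, named in the column headers. That they are counts is seen from the values, all whole numbers. Whether molecular identifiers were collapsed is not stated, so intervals may understate the error. Alignment used STAR 2.5.3a and mm10, per the submitters' processing notes. No source used here names the counter, the annotation, the strand setting or the handling of reads with several alignments. Every deposited barcode had 200 genes or more and under 5% mt- counts, as found in the table. No barcode was removed here and no doublets were called.

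For each library the counts of all barcodes were added and converted to CPM. No test was possible without replicates. Genes with a mean of 50 CPM or more over the 3 treated libraries were compared: log2 ratios used a pseudocount of 10 CPM, and the 1.5-fold limit (2-fold as an alternative) used CPM without one. Levels and ratios have exact 95% intervals. The scripts were tested on simulated data. Alternatives were edgeR's TMM, DESeq2 size factors, other totals, filters, pseudocounts and barcode sets. Shared 3′ sequence and gene coordinates come from GENCODE M21 (GRCm38, the build of mm10), which held transcripts for 96.0% of the 3609 genes, and promoters from RefSeq GRCm38.p6. Analyses ran in Python 3.11.15 with numpy 2.4.6, pandas 2.3.3 and scipy 1.17.1, and in R 4.3.3 with edgeR 4.0.16 and DESeq2 1.42.0.

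The named genes are the members low at 12 h alone, in each complex the member with most counts and those with the highest and lowest 12 h over 6 h ratio, the members with the largest other changes, and a fixed list of core subunits and isoforms; Atp5c1, Atp5d, Cox5b, Cox7b and Ndufa12, and the single genes of the other lists, were added after their values were seen. The members, lists and comparisons were chosen with earlier results of these data known. The measure of shared sequence and the core grouping were added after the values were seen. Some genes that the rule names are not reported here.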

Additional observations from a re-analysis of the deposited data

How the results depend on the processing

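No paired analysis was possible because each time point has 1 library. Of 108 recomputed values, 71 stayed within counting error of the main value or, for counts of genes, within 1.5 times. For medians the limit was the counting error of a typical single gene, so some small medians changed sign and are still among the 71. The OXPHOS median at 12 h over 6 h, 0.03 on the log2 scale, ranged from -0.14 to 0.09, and that at 24 h over 12 h, 0.09, was 0.21 with TMM and 0.22 with DESeq2 size factors.

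The 6 OXPHOS genes lower at 12 h than at 6 h became 11 with TMM (against 11.4% of all genes), 11 with DESeq2 size factors (13.1%), 10 with totals without mt- and ribosomal protein genes (10.7%), 12 with equal barcode weights (12.5%), 2 with a filter of 100 CPM (9.08%) and 1 among genes with under 5% shared sequence (4.9%), a setting chosen after seeing the data. For the 4 genes higher at 24 h than at 12 h, and the 4 low at 12 h alone, the 100 CPM filter left 1 of each, Atp5l (against 4.41% and 3.08% of all genes). The shared-sequence limit left 0 of each (1.38% and 0.276%). The first setting leaves out Atp5g2, Ndufs5 and Ndufb4, and the second leaves out all 4.

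The summed OXPHOS ratio of 12 h over 6 h, 0.971, was 0.894 with TMM, 0.862 with DESeq2, 0.909 with the reduced totals, 0.992 in barcodes of 1000 counts, 0.990 in barcodes of 500 genes, 0.908 with equal weights and, on the other side of 1, 1.02 without each gene's top barcode. At 24 h over 12 h, 1.09 became 1.19, 1.20 and 1.14 under the first 3 of these. The mt- protein-coding ratio of 12 h over 6 h, 1.73, was 1.59, 1.53 and 1.62 under those 3, 1.39 and 1.41 in the deeper barcodes, 4.57 with equal weights and 1.84 without top barcodes. At 24 h over 12 h, 0.858 became 0.935, 0.939, 0.898 and, with equal weights, 0.769. With the c, b and OSCP genes as core, chosen after seeing the data, the core ratio of 12 h over 6 h, 1.18, was 1.06, and that of complex V, 1.16, was 0.997. With Uqcrc1 and Uqcrc2 as accessory, the ratios of complex III, 1.29 for core and 0.855 for accessory genes, were 1.14 and 0.909. Apart from settings that move or leave out genes or barcodes, the cause was not tested. Leaving out top barcodes kept the full library totals, and the all-gene median log2 ratio of 12 h over 6 h rose with it from 0.14 to 0.22. The OXPHOS median rose as well, from 0.03 to 0.09, and stayed below the all-gene median. A sum relative to other genes was not computed, so the crossing of 1 cannot be read as a change relative to them. Depth limits the 6 h and 0 h levels most: at 0 h, 3 counts are 28.1 CPM.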
